A study of Mus musculus with 3 samples.

Results

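The genes described here encode matrix metalloproteinases, their tissue inhibitors (TIMPs), the related protease ADAMTS1 and the matrix glycoprotein thrombospondin 1. They were chosen by name, as a list of 10 gene symbols, with earlier results of these data known. All 10 were found among the 24453 gene symbols of the deposited table, each represented by its longest coding RefSeq transcript. RNA was sequenced from macrophages of C57BL/6 mice aged 8 weeks, not further treated as far as the labels say, with 1 library each for heart (cardiac macrophages), kidney (renal macrophages) and liver (Kupffer cells, which line the sinusoids). In every tissue cells were sorted by flow cytometry for the macrophage surface proteins CD11b and F4/80 and against Ly6G and Ly6C, which mark neutrophils and inflammatory monocytes, and the RNA was amplified with a kit for low input. The labels do not say how many animals each library came from.

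Levels are given as RPKM, the reads on a transcript per kilobase of its exons and per 1000000 reads of the library, and can be compared between genes. The reads counted over all transcripts, recovered from the deposited values, numbered 14460619 in the heart, 15550828 in the kidney and 16743417 in the liver library. A single library stood for each tissue, so animal-to-animal spread is unknown, nothing could be tested against it, and what follows describes 3 libraries. Intervals are exact 95% Poisson intervals of the reads, or exact 95% Clopper-Pearson intervals for a ratio, and reflect the counting of reads alone, because PCR duplicates cannot be recognised as such. A fold against a library with 0 reads was computed with 3 reads in their place and is a lower bound. All 10 macrophage markers examined, such as Adgre1, Csf1r, Cd68 and Lyz2, reached 1 RPKM in every library, so the labelled cell type had its defining genes. Markers of other cells were present too. Most hepatocyte and endothelial genes examined were highest in the liver library (Alb at 64.3 RPKM, Stab2 at 57.5 RPKM), and renal tubule genes in the kidney library (Umod at 215 RPKM). Of the endothelial genes, Emcn went another way, at 5.26 RPKM in the heart, 3.955 RPKM in the kidney and 0.908 RPKM in the liver. Vwf was also highest in the heart and Tek in the kidney, and the hepatocyte gene Trf was near-equal in all 3 libraries.

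Matrix metalloproteinases are zinc-dependent enzymes that are made as inactive proenzymes and cut collagens, elastin and other matrix proteins once their propeptide is removed. TIMPs bind the active site and block them, so the balance between enzyme and inhibitor sets how much matrix is degraded. Macrophages are a known source of several of these enzymes in remodelling tissue. Thrombospondin 1 is a secreted glycoprotein that binds CD36 and CD47 on cells and activates latent TGF-β, and ADAMTS1 is a secreted protease that cleaves the proteoglycans aggrecan and versican.

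The promoters of metalloproteinase genes are known for sites of the transcription factor AP-1. To set the expression data beside the sequence, 120 bases before the start of the counted transcript are given for 5 genes. These are Mmp13 and Mmp12, the most abundant metalloproteinases of the 10 genes, and Mmp8, a gene of the same chromosome 9 cluster with 0 reads. The others are Timp1 and Adamts1, which had reads in the heart library alone. They come from RefSeq on GRCm38.p6, the assembly named mm10 in the deposited file, and are written 5′ to 3′ on the strand of the gene. Capitals mark matches to TGANTCA, the AP-1 motif, and to TATAAA, the TATA box, searched on both strands in the 250 bases before the start.
Mmp13 chr9:7272394-7272513 (plus strand): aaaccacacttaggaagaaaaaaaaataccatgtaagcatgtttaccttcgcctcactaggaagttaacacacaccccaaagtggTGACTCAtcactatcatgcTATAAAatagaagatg
Mmp12 chr9:7347254-7347373 (plus strand): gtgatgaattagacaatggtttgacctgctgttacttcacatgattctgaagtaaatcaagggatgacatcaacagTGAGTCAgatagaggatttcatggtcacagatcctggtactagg
Mmp8 chr9:7558309-7558428 (plus strand): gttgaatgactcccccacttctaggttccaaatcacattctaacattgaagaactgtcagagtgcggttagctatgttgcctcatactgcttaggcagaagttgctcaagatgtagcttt
Timp1 chrX:20870046-20870165 (plus strand): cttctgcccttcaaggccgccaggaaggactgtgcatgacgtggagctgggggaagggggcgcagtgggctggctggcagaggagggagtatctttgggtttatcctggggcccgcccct
Adamts1 chr16:85803114-85803233 (minus strand): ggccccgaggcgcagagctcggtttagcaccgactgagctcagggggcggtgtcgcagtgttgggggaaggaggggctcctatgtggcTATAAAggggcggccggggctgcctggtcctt
Both Mmp13 and Mmp12 held an AP-1 match, tgactca at 35 bases and tgagtca at 44 bases before the start (first base of the match), and Mmp13 also held TATAAA at 16 bases. The window of a second annotated start of Mmp12, 2977 bases upstream, held neither motif. Adamts1 held TATAAA at 32 bases, and these letters were in neither of the windows of Mmp8 and Timp1. Of 32851 RefSeq promoter windows of the same length, 6.75% held TGANTCA and 12.4% held TATAAA. RefSeq entries were matched for 7 of the 10 genes, and the windows of Mmp14 and Timp2 held neither motif. The core of ETS factor sites, AGGAAG, which 29.5% of windows held, was found in the windows of Mmp13, Mmp8, Mmp14, Timp1 and the upstream start of Mmp12. A match is a description of the letters and shows no binding.

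Mmp13, Mmp12 and Timp2 were the most abundant of the 10 genes in all 3 libraries. Thbs1 was much higher in the heart than in the other libraries, Timp1 and Adamts1 had reads in the heart alone, and Mmp12 was highest in the kidney. Mmp9, which encodes a gelatinase, was highest in the liver and had 0 reads in the kidney, and Mmp8 had 0 reads in every library. In sorted pools such as these, fewer cells of a type and less RNA per cell cannot be told apart. RPKM was at least 1 for 9 of the 10 genes in the heart, for 5 in the kidney and for 5 in the liver library.

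**Figure D1:**
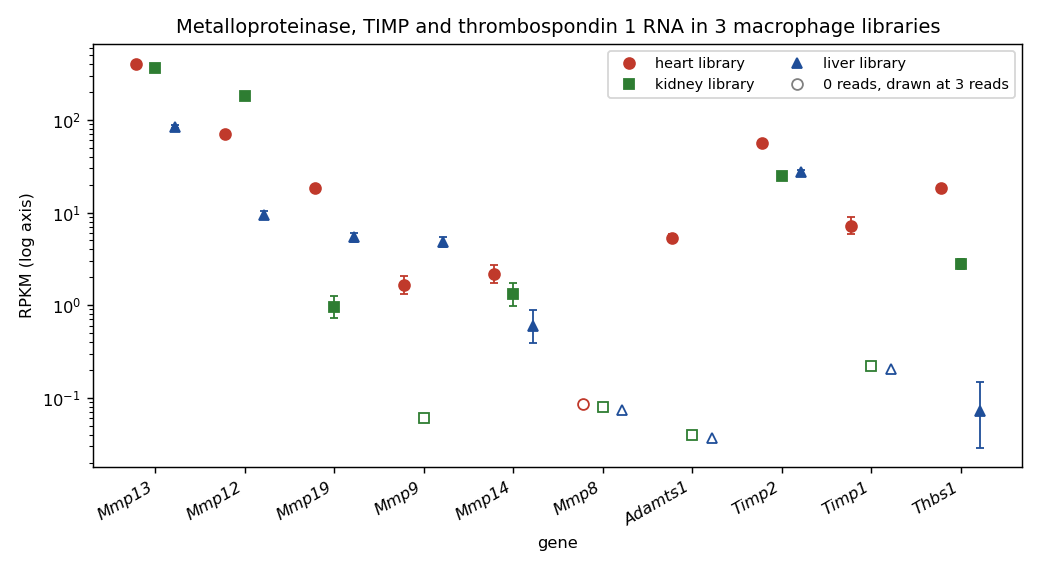
RPKM (log axis) of the 10 genes in the heart, kidney and liver library, with exact 95% Poisson intervals as bars. Open symbols mark 0 reads and are drawn at the level of 3 reads; Timp1 and Adamts1 have a filled symbol for the heart library only.

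Libraries were compared on log2(RPKM + 1), and a gene was called higher or lower where it differed by 2 log2 units or more, that is 4-fold on this scale. A level of 1 RPKM in any library admitted a gene to this comparison, which 11482 genes reached, among them 9 of the 10 members. Timp1 and Adamts1 passed this filter through the heart library alone, so they could only be higher there. The 10 genes were chosen with earlier results of these data known, so the shares of all compared genes are given for scale only. Against the liver, 5 of the 10 genes (Mmp12, Mmp13, Timp1, Adamts1 and Thbs1) were higher in the heart and 0 were lower, whereas 5.33% of all compared genes were higher and 7.13% were lower (12.7% and 10.99% after scaling to TPM, 6.83% and 5.94% after median ratio scaling). Against the kidney, 4 (Mmp19, Timp1, Adamts1 and Thbs1) were higher in the heart and 0 were lower, beside 2.4% and 5.1% of all compared genes (5.57% and 10.86% after scaling to TPM, which adds Mmp9 to the higher genes, and 3.005% and 3.68% after median ratio scaling). Between kidney and liver, 2 (Mmp12 and Mmp13) were higher in the kidney and 1 (Mmp9) was lower, beside 7.57% and 5.1% (16.6% and 8.06% after scaling to TPM, which adds Thbs1 to the higher genes). The median of all compared genes was -0.16 in heart minus liver, -0.23 in heart minus kidney and 0.04 in kidney minus liver, so the typical gene was slightly lower in the heart. TPM values were larger than RPKM in every library and the pseudocount stayed at 1, so this scaling also acted as a smaller pseudocount. With a pseudocount of 5, which weighs down genes of low RPKM, 3 genes (Mmp12, Mmp13 and Thbs1) remained past the threshold for heart over liver and 0 for heart over kidney. The call of Mmp9 as lower in the kidney than the liver was also lost with that pseudocount, and with a filter of 5 RPKM, while Mmp19 joined it with a pseudocount of 0.1 or after scaling to TPM.

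**Figure D2:**
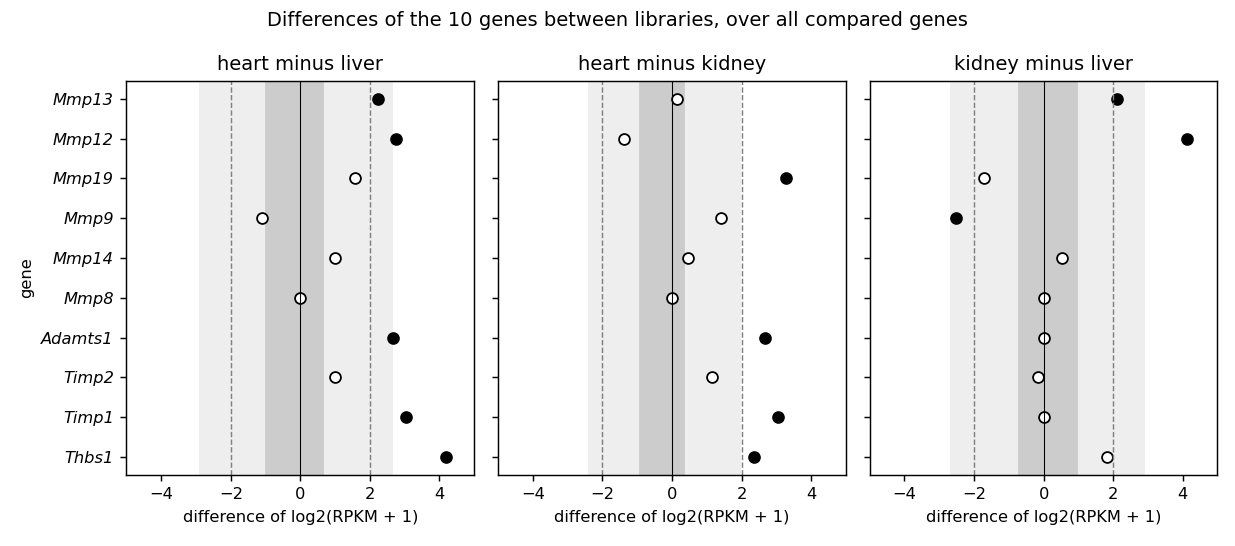
Differences of log2(RPKM + 1) of the 10 genes between heart and liver, heart and kidney, and kidney and liver, each as the first minus the second; filled points lie at or beyond 2 log2 units (dashed lines). Dark and light bands hold the central 50% and 95% of the 11482 compared genes; Thbs1 at 4.18 for heart minus liver and Mmp12 at 4.13 for kidney minus liver lie outside the light band.

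Mmp13 encodes collagenase 3, which cleaves fibrillar collagens and is a main interstitial collagenase of the mouse. It was the most abundant member in each library, at 403 RPKM in the heart (397 to 410 as the 95% interval, 15525 reads), 368 RPKM in the kidney (362 to 374, 15237 reads) and 84.8 RPKM in the liver library (82.1 to 87.5, 3781 reads). It ranked 30 of the 11482 compared genes in the heart, 36 in the kidney and 1036 in the liver library. The heart exceeded the liver 4.75-fold (interval 4.59 to 4.93) and the kidney exceeded the liver 4.34-fold (4.19 to 4.50). Heart and kidney were close, with a ratio of 1.10 (1.07 to 1.12). On log2(RPKM + 1) the differences from the liver were 2.24 for the heart and 2.10 for the kidney, not far past the threshold. The gene lies at chr9:7272514-7283333 of mm10 on the plus strand and has 10 exons, none of which overlaps another annotated gene.

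The near-equal levels of Mmp13 in heart and kidney have to be read beside its read density. Per the file header, no more than 3 tags were counted at a position, and Mmp13 had 5.83 reads per bp of exon in the heart, 5.72 in the kidney and 1.42 in the liver library. Only 76 genes in the heart, 75 in the kidney and 136 in the liver library had 5 or more reads per bp. Among the 71 compared genes with 5 to 6 reads per bp in the denser of the heart and kidney libraries, the median absolute difference of heart and kidney was 0.20 log2 units, against 0.68 among the 10157 genes with under 1 read per bp in both. Densities of up to 11.8 reads per bp in the heart and 18.8 in the kidney occurred, so how the limit acted on a gene cannot be read from the density alone. How much it held down Mmp13 in the heart and kidney libraries was not tested.

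Mmp12 encodes macrophage elastase, which degrades elastin and is made mainly by macrophages. Its 10 exons lie at chr9:7347374-7360461 on the plus strand. Expression stood at 69.8 RPKM in the heart (67.5 to 72.1, 3626 reads), 183 RPKM in the kidney (179 to 186, 10219 reads) and 9.47 RPKM in the liver library (8.71 to 10.3, 570 reads). The 3 intervals lay far apart, with the kidney highest and the liver lowest. The kidney exceeded the liver 19.3-fold (17.7 to 21.0) and the heart exceeded the liver 7.37-fold (6.74 to 8.06). The heart level was 2.62-fold below that of the kidney (2.52 to 2.72). Its density reached 2.84 reads per bp in the kidney library, against 1.01 in the heart and 0.159 in the liver. Mmp13 exceeded Mmp12 in every library, 5.78-fold in the heart, 2.01-fold in the kidney and 8.95-fold in the liver. Among the compared genes, 296 (2.58%) were past the threshold in both the heart and the kidney against the liver, as Mmp12 and Mmp13 were, and both comparisons share the liver library.

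Mmp13, Mmp12 and Mmp8 belong to a cluster of metalloproteinase genes on chromosome 9, of which the deposited table held 10 genes, with the start of the last 419.6 kb from that of the first. In order along the chromosome these are Mmp13, Mmp12, Mmp1b, Mmp3, Mmp1a, Mmp10, Mmp8, Mmp27, Mmp20 and Mmp7. Mmp13 and Mmp12 at its end, 74.9 kb apart by their starts, were the only genes of the cluster with reads in all 3 libraries. Mmp1b, Mmp3, Mmp1a, Mmp8, Mmp20 and Mmp7 had 0 reads in every library, and Mmp10 had 2 reads in the kidney library only. Mmp27 broke this pattern, with 0 reads in the heart, 0 in the kidney and 30.4 RPKM (1079 reads) in the liver library. There it exceeded Mmp12, at 9.47 RPKM. The level of Mmp27 was lower than in the liver by at least 311-fold in the heart and by at least 334-fold in the kidney library. Its neighbours on either side, Mmp8 and Mmp20, had 0 reads in the liver library too. Most hepatocyte and endothelial genes examined, such as Alb and Stab2, were also highest in the liver library. The part of such cells in the Mmp27 values was not tested.

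**Figure D3:**
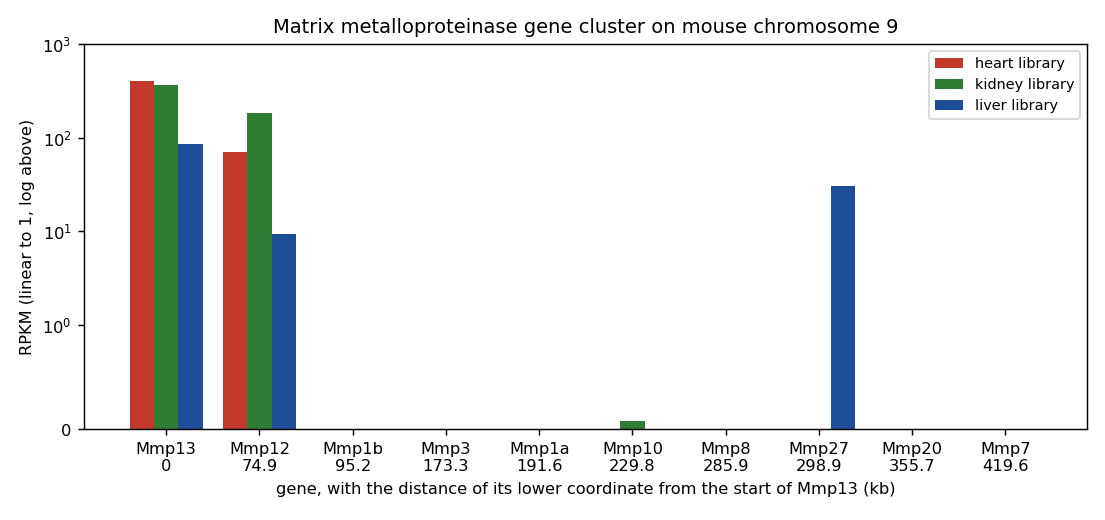
RPKM of the 10 metalloproteinase genes of the chromosome 9 cluster in the heart, kidney and liver library (axis linear to 1, log above), in chromosomal order, with the distance from the start of Mmp13 in kb under each name. Bars rise above 1 RPKM for Mmp13 and Mmp12 in all 3 libraries and for Mmp27 in the liver library alone.

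Mmp19 encodes a secreted metalloproteinase that cleaves basement membrane proteins and lies at chr10:128790953-128800824 on the plus strand, with 9 exons. It stood at 18.2 RPKM in the heart (17.0 to 19.4, 894 reads), 0.965 RPKM in the kidney (0.718 to 1.27, 51 reads) and 5.39 RPKM in the liver library (4.81 to 6.03, 307 reads). The heart level was 18.9-fold that of the kidney (14.2 to 25.5) and 3.37-fold that of the liver (2.96 to 3.85), and the kidney level was 5.59-fold lower than that of the liver (4.15 to 7.68). Besides Mmp9, it was the only metalloproteinase of the 10 with a kidney level below that of the liver, by 1.70 log2 units, which did not reach the threshold. In the GENCODE M21 annotation 27.9% of its exon bases are shared with genes on the opposite strand. Reads were counted on both strands, so these cannot be separated. The overlapping gene with a value in the table, Tmem198b, stood at 13.7 RPKM in the heart, 2.71 RPKM in the kidney and 3.82 RPKM in the liver library.

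Mmp9 encodes gelatinase B, which cleaves denatured collagen and type IV collagen and is known from neutrophils as well as macrophages. It lies at chr2:164948219-164955849 on the plus strand, with 13 exons. Its level stood at 1.66 RPKM in the heart (1.31 to 2.08, 76 reads), at 0 in the kidney (0 reads, upper limit 0.0751 RPKM) and at 4.76 RPKM in the liver library (4.19 to 5.39, 252 reads). The heart level was 2.86-fold below that of the liver (2.21 to 3.75), and the kidney level lay at least 78-fold below the liver. Heart exceeded kidney at least 27.2-fold. Of the members with reads in the liver library, it was the only 1 with its highest level there.

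Mmp14, which encodes the membrane-anchored MT1-MMP, cuts collagen at the cell surface and activates pro-MMP2. The gene lies at chr14:54431604-54441258 on the plus strand, with 10 exons. Its RNA was low throughout, at 2.17 RPKM in the heart (1.72 to 2.69, 81 reads), 1.32 RPKM in the kidney (0.988 to 1.72, 53 reads) and 0.601 RPKM in the liver library (0.392 to 0.88, 26 reads). The heart and kidney intervals just touched, with a ratio of 1.64 (1.15 to 2.37), and the heart exceeded the liver 3.61-fold (2.29 to 5.85). Mmp2, the gelatinase it activates, was also low, at 1.17 RPKM in the heart, 0.765 RPKM in the kidney and 2.17 RPKM in the liver library. Mmp8 (chr9:7558429-7568486, plus strand, 10 exons), the collagenase of neutrophil granules, had 0 reads in the heart, the kidney and the liver library, and 3 reads would have been 0.085 RPKM in the heart, 0.079 RPKM in the kidney and 0.0734 RPKM in the liver.

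Timp2 encodes an inhibitor that also takes part in the activation of pro-MMP2 by MT1-MMP. It lies at chr11:118301061-118355411 on the minus strand, with 5 exons. It stood at 56.4 RPKM in the heart (54.4 to 58.4, 2947 reads), 24.6 RPKM in the kidney (23.3 to 26.0, 1384 reads) and 27.5 RPKM in the liver library (26.2 to 28.8, 1664 reads). Its highest and lowest libraries were closer than those of any other member with reads in all 3. It ranked 1202 of the compared genes in the heart, 2458 in the kidney and 2309 in the liver library. The heart level was 2.05-fold that of the liver (1.93 to 2.18) and 2.29-fold that of the kidney (2.15 to 2.44), and the kidney level was 0.896 of that of the liver (0.833 to 0.962). None of these differences reached 2 log2 units.

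Timp1 encodes an inducible inhibitor that binds pro-MMP9 and most soluble metalloproteinases, from 6 exons at chrX:20870166-20874737 on the plus strand. It stood at 7.21 RPKM in the heart library (5.81 to 8.85, 92 reads), with 0 reads in the kidney and 0 in the liver library. The heart thus exceeded the kidney at least 33-fold and the liver at least 35.5-fold, and both differences were 3.04 on log2(RPKM + 1). Its 3 annotated transcripts gave 7.21, 7.67 and 7.24 RPKM in the heart and 0 in both other libraries. Its exons share no bases with another annotated gene.

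Summed over the 6 metalloproteinase genes, the level was 494.9 RPKM in the heart, 553 RPKM in the kidney and 105 RPKM in the liver library. Mmp13 made up 81.5% of this sum in the heart, 66.5% in the kidney and 80.7% in the liver, and Mmp12 made up 14.1% in the heart, 33.1% in the kidney and 9.02% in the liver. The 2 TIMP genes summed to 63.6 RPKM in the heart, 24.6 RPKM in the kidney and 27.5 RPKM in the liver library. Metalloproteinase RNA therefore exceeded TIMP RNA 7.78-fold in the heart, 22.5-fold in the kidney and 3.82-fold in the liver library. With all 23 Mmp genes and all 4 Timp genes of the table the ratios were 6.75 in the heart, 14.5 in the kidney and 4.73 in the liver. Of the added inhibitors Timp3 was the most abundant in each library, and of the added proteases Mmp27 was the most abundant in the liver. These are ratios of RNA, per length of exon, and the limit on tags named for Mmp13 applies to them.

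**Figure D4:**
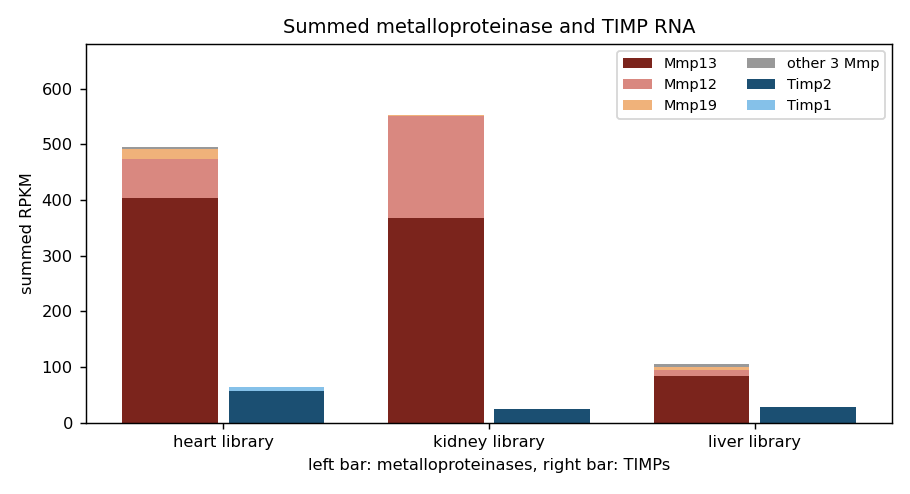
Summed RPKM of the 6 metalloproteinase genes (left bars) and the 2 TIMP genes (right bars) in the heart, kidney and liver library, stacked by gene. Mmp13 is the largest part of each left bar and Timp2 of each right bar; the kidney library has the highest left bar, at 553 RPKM, and the lowest right bar, at 24.6 RPKM.

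Adamts1 lies at chr16:85793828-85803113 on the minus strand, with 9 exons. It stood at 5.34 RPKM in the heart library (4.81 to 5.90, 376 reads), with 0 reads in the kidney and in the liver library. The heart exceeded the kidney at least 135-fold and the liver at least 145-fold, with both differences 2.66 on log2(RPKM + 1). Of 5394 genes with heart RPKM of at least 5, 28 (0.519%) had 0 reads in both other libraries, and Timp1 and Adamts1 are among them. This pattern describes the values of these genes themselves, so its share is a count and lends them no support. Adamts1 was also the only ADAMTS gene to reach 5 RPKM, since of the other 18 examined only Adamts6 reached 1 RPKM, at 0.043 RPKM in the heart, 1.22 RPKM in the kidney and 0 in the liver library.

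Thbs1 encodes thrombospondin 1 from 22 exons at chr2:118111876-118127133 on the plus strand. It stood at 18.4 RPKM in the heart (17.5 to 19.3, 1548 reads), 2.77 RPKM in the kidney (2.44 to 3.14, 251 reads) and 0.072 RPKM in the liver library (0.0289 to 0.148, 7 reads). The 3 levels were far apart beyond counting error, in the order heart, kidney and liver. The heart exceeded the liver 256-fold (124 to 638) and the kidney 6.63-fold (5.80 to 7.61), and the kidney exceeded the liver 38.6-fold (18.5 to 97.0). The wide intervals against the liver come from its 7 reads. On the scale of log2(RPKM + 1) its kidney minus liver difference was 1.81, below the threshold, since the pseudocount weighs on low values. Thbs1, Timp1 and Adamts1 were among 144 compared genes (1.25%) past the threshold for the heart over both other libraries. The gene shares 3.2% of its exon bases with a gene on the opposite strand that is not analysed here. Of the other thrombospondins, Thbs2 reached 1.15 RPKM in the heart, against 0.338 RPKM in the kidney and 0 in the liver library.

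Markers of other cells moved with several of these genes. Among the 12 fibroblast and mural cell markers, 8 had RPKM of at least 1 in the heart, 2 in the kidney and 4 in the liver library, and 0 in the heart, 5 in the kidney and 6 in the liver library had 0 reads. Their summed level was 173 RPKM in the heart, 8.35 RPKM in the kidney and 22.5 RPKM in the liver. The matrix proteoglycan genes Dcn and Lum led this list, Dcn at 125 RPKM in the heart, 0.48 RPKM in the kidney and 8.15 RPKM in the liver, and Lum at 21 RPKM in the heart with 0 reads in both others. Pdgfra, a receptor that defines fibroblasts, stood at 1.62 RPKM in the heart with 0 reads in both others, and Col1a1 was below 1 RPKM in every library. Not all members followed the heart. Rgs5, a pericyte gene, stood at 0.051 RPKM in the heart, 0 in the kidney and 3.84 RPKM in the liver, and Tagln, a smooth muscle gene, at 5.30 RPKM in the heart, 3.22 RPKM in the kidney and 5.75 RPKM in the liver. Fibroblasts are known to express Timp1, Adamts1 and Thbs1. Their part in the heart values of these genes was not tested. Without Dcn the summed level was 48.3 RPKM in the heart, 7.87 RPKM in the kidney and 14.4 RPKM in the liver library.

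Platelet genes differed as well, and platelets store thrombospondin 1. Of the 10 platelet markers, 2 had RPKM of at least 1 in the heart, 3 in the kidney and 2 in the liver library. Ppbp stood at 54.3 RPKM in the heart, 1.44 RPKM in the kidney and 0 in the liver library, in the same order as Thbs1. Pf4, which macrophages also express, stood at 365 RPKM in the heart, 220 RPKM in the kidney and 249 RPKM in the liver. Clec1b, which Kupffer cells express, stood at 0.893 RPKM in the heart, 2.88 RPKM in the kidney and 370 RPKM in the liver and so weighed on the list's sum of 420 RPKM in the heart, 225 RPKM in the kidney and 619 RPKM in the liver. Of the defining platelet genes, Itga2b, Gp9, Gp5, Gp1bb and Treml1 had 0 reads in the heart library, and Gp1ba had 14 reads in the heart, 9 in the kidney and 0 in the liver library. The part of platelets in the Thbs1 values was not tested. The sum of the 8 cardiomyocyte markers also had the order of Thbs1, at 13.7 RPKM in the heart, 5.21 RPKM in the kidney and 0.041 RPKM in the liver. Of these markers 4 in the heart, 1 in the kidney and 0 in the liver library reached 1 RPKM. Single markers varied, with Myl2 giving 3.61 RPKM of the kidney sum and Nppa having 3 reads in the heart and 4 in the kidney.

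For Mmp9 and Mmp8, markers of neutrophils were compared, of which 3 of 12 had RPKM of at least 1 in the heart, 1 in the kidney and 1 in the liver library. Ngp, Camp, Elane, Mpo and Lcn2 had 0 reads in all 3 libraries, and S100a8 and Retnlg had 23 and 17 reads in the heart and 0 in both others. The summed level of the 12 neutrophil markers was 18.6 RPKM in the heart, 18.1 RPKM in the kidney and 31.6 RPKM in the liver library. Most of it came from Csf3r, a receptor that monocytes and macrophages also carry, at 11.8 RPKM in the heart, 17.8 RPKM in the kidney and 31.6 RPKM in the liver. Monocyte markers summed to 267 RPKM in the heart, 238 RPKM in the kidney and 406 RPKM in the liver library. Its members ran in different orders. Plac8 stood at 129 RPKM in the heart, 5.69 RPKM in the kidney and 337 RPKM in the liver, the order of Mmp9, whereas Ccr2 stood at 117 RPKM in the heart, 226.5 RPKM in the kidney and 54.2 RPKM in the liver. Chil3 stood at 4.89 RPKM in the heart with 0 reads in both others. Among mast cell and eosinophil markers the order of Mmp9 was seen for Ccr3, an eosinophil receptor gene, at 2.71 RPKM in the heart, 0.039 RPKM in the kidney and 33.2 RPKM in the liver, while the eosinophil granule genes Prg2 and Epx had 0 reads in all 3 libraries. The part of such cells in the Mmp9 values was not tested.

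**Figure D5:**
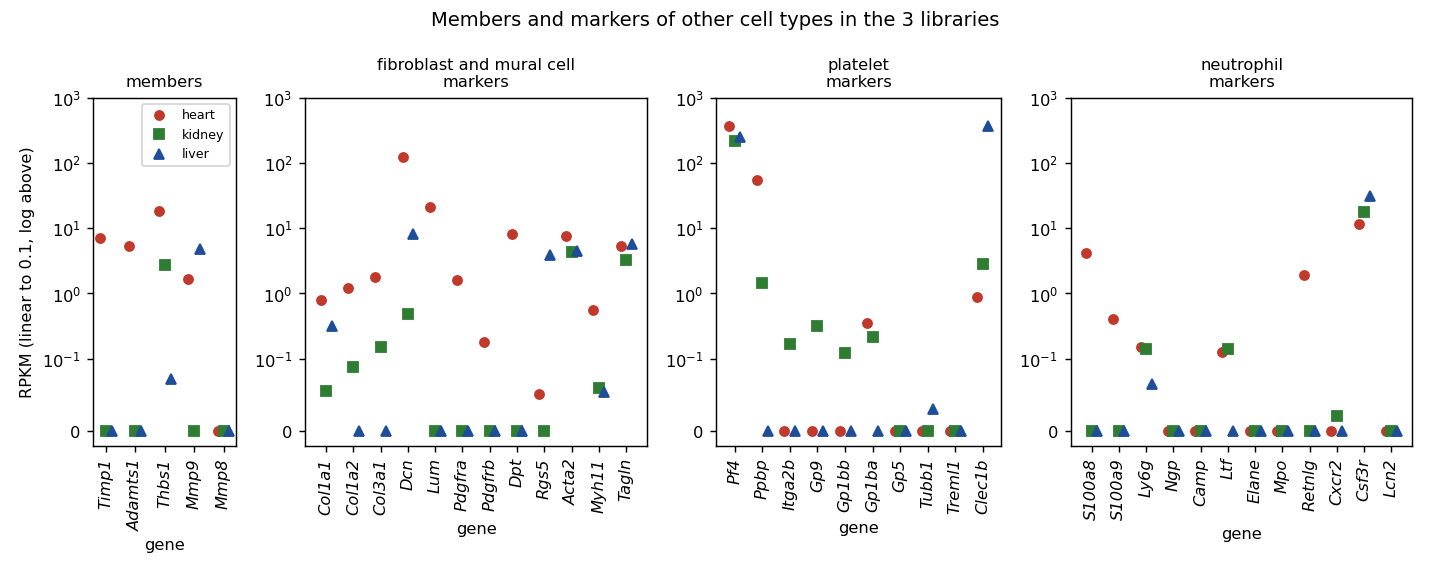
RPKM (linear to 0.1, log above) of Timp1, Adamts1, Thbs1, Mmp9 and Mmp8 and of markers of fibroblasts and mural cells, platelets and neutrophils in the heart, kidney and liver library. Dcn and Lum are highest in the heart library, as are Timp1, Adamts1 and Thbs1, and most platelet and neutrophil markers lie at or near 0.

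Other inhibitors and proteases gave the setting of these genes. Timp3, a TIMP bound to the matrix, stood at 8.14 RPKM in the heart, 13.8 RPKM in the kidney and 1.70 RPKM in the liver and passed the threshold for kidney over liver, with a difference of 2.46 log2 units. Timp4 stood at 1.91 RPKM in the heart with 0 reads in both others. The 17 further matrix metalloproteinases examined included 3 with RPKM of at least 1 in any library, namely Mmp27, Mmp2 and Mmp25, the leukocyte enzyme MT6-MMP at 0.082 RPKM in the heart, 1.93 RPKM in the kidney and 0 in the liver. Of 9 membrane-bound ADAM proteases, 6 were compared and 1 was higher in heart than in liver, beside 5.33% of all compared genes. This was Adam19, at 18.2 RPKM in the heart, 6.53 RPKM in the kidney and 0.477 RPKM in the liver. It was also the 1 ADAM gene higher in the kidney than in the liver, beside 7.57% of all compared genes. Adam17, the shedding enzyme TACE, varied little, at 37.6 RPKM in the heart, 38.7 RPKM in the kidney and 44.3 RPKM in the liver.

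Among 10 genes of the plasminogen system and proprotein convertases, which activate metalloproteinase precursors, 8 were compared. For heart minus liver their median was 1.14 log2 units (1.08 with zeros at the floor), beside -0.16 for all compared genes. In this comparison 2 were higher in the heart and 0 lower, beside 5.33% and 7.13% of all compared genes. The higher genes included Plaur, the urokinase receptor, at 70.7 RPKM in the heart, 19.9 RPKM in the kidney and 8.57 RPKM in the liver. For heart minus kidney the median was 0.96 (0.89 with zeros at the floor). Here 0 of 8 passed the threshold, beside 2.4% higher and 5.1% lower of all compared genes. Plat and Serpinb2 passed the filter through the heart alone and Plg through the liver alone. The filter thus fixed the direction of these genes against the liver, and both medians include them. Plau, which encodes urokinase, stood at 56.4 RPKM in the heart, 80.8 RPKM in the kidney and 26.1 RPKM in the liver, with the kidney highest as for Mmp12. Furin, the convertase that cuts pro-MT1-MMP, stood at 2.26 RPKM in the heart, 0.968 RPKM in the kidney and 3.66 RPKM in the liver.

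The receptors of thrombospondin 1 examined differed less between heart and liver than Thbs1 did. CD36 RNA was abundant, at 304 RPKM in the heart, 233 RPKM in the kidney and 138 RPKM in the liver, and Cd47 stood at 55.6 RPKM in the heart, 50.1 RPKM in the kidney and 59.3 RPKM in the liver. Of 13 genes found in a list of these receptors and of TGF-β activation, 9 were compared. For heart minus liver 2 were higher and 1 was lower, beside 5.33% and 7.13% of all compared genes. The higher genes were Sdc4 and Itga6. Sdc4 stood at 332 RPKM in the heart, 214 RPKM in the kidney and 63.3 RPKM in the liver. Itga6 stood at 11.8 RPKM in the heart, 12.6 RPKM in the kidney and 2.17 RPKM in the liver. The 1 lower gene was Lrp1, a scavenging receptor for thrombospondins and proteases, at 1.18 RPKM in the heart and 9.09 RPKM in the liver. The median of the 9 genes was 0.78. Cd36, Sdc4 and Itga4 had the order of Thbs1, with Itga4 at 19.6 RPKM in the heart, 9.07 RPKM in the kidney and 5.23 RPKM in the liver. Cd47, Itgav, Itgb1, Itga6, Lrp1 and Calr did not have this order. For heart minus kidney 0 of the 9 passed in either direction, beside 2.4% higher and 5.1% lower of all compared genes, and the median was 0.15. Tgfb1, whose latent protein thrombospondin 1 activates, was at 0.543 RPKM in the heart (17 reads), 0.267 RPKM in the kidney (9 reads) and 0.165 RPKM in the liver (6 reads).

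RNA for the matrix substrates themselves was low. Of 16 such genes 8 were compared, all of which passed the filter through the heart or kidney, since none reached 1 RPKM in the liver. Of these, 2 were higher in heart than in liver, beside 5.33% of all compared genes, a direction that the filter largely fixed. Fn1, which encodes fibronectin, stood at 3.37 RPKM in the heart with 0 reads in both others, and Lamc1, a laminin chain, at 3.22 RPKM in the heart, 2.23 RPKM in the kidney and 0 in the liver. Fn1 was also past the threshold for heart minus kidney, and it had passed the filter through the heart alone, so it could only be higher there. These genes are known from fibroblasts and epithelia, whose markers differed between the libraries as given above.

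For each member above 10 RPKM, the genes with the most similar pattern were sought by the distance of log2(RPKM + 1), centred on each gene's mean, over the 3 libraries, among 5290 other coding genes that reached 10 RPKM in a library. Nearest to Mmp13 were Runx1, at 15.2, 14.1 and 2.41 RPKM in the heart, kidney and liver, and St3gal6, at 204, 181 and 40.8 RPKM. Nearest to Mmp12 were Syt11, at 14.5, 41.7 and 1.38 RPKM, and Gpr155, at 8.52, 23.4 and 0.513 RPKM. Both were highest in the kidney and lowest in the liver, as Mmp12 was. Mmp19 was closest to Cd80, a costimulatory ligand, at 49.3, 3.68 and 14.4 RPKM, and to Crem, a transcription factor of the cAMP response, at 146, 15.8 and 62.1 RPKM. Thbs1 was closest to Sgms1, at 70.8, 12.97 and 3.10 RPKM, and Etv3, at 35.7, 5.87 and 0.756 RPKM, and Timp2 to Fnip1, at 30.1, 12.8 and 14.3 RPKM, and Hmgn5, at 21.2, 8.63 and 9.69 RPKM. With 3 libraries many genes share a pattern, and the distances ranged from 0.00968 log2 units for Fnip1 to 0.256 log2 units for Crem.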

How the data were processed

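RNA was measured in 3 libraries, grouped by tissue from the sample labels. The authors deposited RPKM for 34711 RefSeq transcripts, computed per the file headers with HOMER's analyzeRepeats.pl (mm10, exons, both strands, a total of 1000000 per library, at most 3 tags per position). CASAVA and STAR are named in the submitters' processing notes; their versions are not given in the sources. The column names say FPKM, while the command asks for RPKM.

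From these values reads were recovered, since RPKM times exon length fell on whole multiples of a step (all 15236, 14159 and 12075 low values checked in heart, kidney and liver, those up to 500 reads, within 0.1 read). The longest coding transcript per symbol was kept, and the 11482 genes that reached 1 RPKM in any library were compared on log2(RPKM + 1), at a threshold of 2. Python 3.11.15, pandas 2.3.3 and scipy 1.17.1 were used, and depth recovery and differences were checked on simulated data. Alternatives were other pseudocounts, scalings, filters and transcripts. Overlaps and exons come from GENCODE M21, promoters from RefSeq. The members, gene lists and motifs were chosen with earlier results of these data known. All members are named; of other lists, up to 4 genes with the largest differences, the 2 most abundant markers, and genes of known role chosen after their values were seen. For each abundant member, the 2 genes most alike in pattern are named. The list of inhibitors also held Cst3, which inhibits cysteine proteases. The symbol Lrrc33 was not matched. Some genes of the lists are not reported here.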

Additional observations from a re-analysis of the deposited data

How the results depend on the processing

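The counts of the 10 genes past 2 log2 units depended mainly on the pseudocount. With a pseudocount of 5, the count was 3 for heart above liver, 0 for heart above kidney and 0 for kidney below liver. For the last comparison, in which Mmp9 alone passed, the count was 2 with a pseudocount of 0.1 and 2 with TPM scaling, where Mmp19 joined Mmp9, and 0 with a filter of RPKM of at least 5, which removes Mmp9. Among all compared genes, the calls for heart above liver numbered 612 as reported, 1582 with a pseudocount of 0.1, 194 with 5 and 1458 with TPM scaling, for heart above kidney 275, 751, 108 and 640, for kidney above liver 869, 2023, 203 and 1908, and for kidney below liver 586, 1155, 188 and 926, each in this order. For heart below liver they numbered 819, 1686, 271 and 1262, and for heart below kidney 586, 1599, 105 and 1247. The other counts of the 10 genes stayed within 1.5 times under these settings, under median ratio scaling, without a filter and with other transcripts. Of 210 recomputed differences of single members, 59 moved beyond their counting interval. TPM scaling, median ratio scaling and other transcripts, the settings that could turn a sign, turned none. TPM scaling enlarged the values with the pseudocount kept at 1, so its calls also reflect a smaller pseudocount in effect. Median ratio scaling moved the median of all compared genes to 0.00, -0.01 and 0.01 for heart minus liver, heart minus kidney and kidney minus liver, and TPM scaling to -0.02, -0.22 and 0.15. No paired analysis was possible because there was 1 library per tissue. Leaving out a replicate was not possible for the same reason. Depth limits Mmp14 in every library, Timp1 and Mmp9 in the heart and Thbs1 in the liver, since these values rest on few reads. The effect of the limit on tags per position on Mmp13 was not tested.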
